A study of Homo sapiens with 21 samples.

Results

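The 33 genes described here encode enzymes of the tricarboxylic acid (TCA) cycle and of the pyruvate and glutamine reactions that feed it. They were chosen by name, and each name was found once among the 56632 genes of the deposited tables. They were measured by sequencing of mRNA in 21 human cell line libraries that fall into 9 groups. PC9 and HCC827, lung adenocarcinoma lines that depend on mutant EGFR, were sequenced as parental cells, after 14 days in 40 nM gefitinib and after 14 days in 20 nM osimertinib, both of them EGFR kinase inhibitors (n = 2 lines per group). AALE, an immortalized tracheobronchial epithelial line, HCC827 and PC9 carried a lentiviral scrambled control, miR-147b or miR-21 under puromycin selection (n = 3 lines per group). H1975 and PC9ER, EGFR-mutant lines labelled as positive for the gatekeeper mutation, carried a control, a miR-147b knockdown or a miR-21 knockdown (n = 2 lines per group).

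Each condition has 1 library per line, so the lines are the replicates of a condition, and nothing in the labels says that the libraries of a line came from separate cultures. The p-values therefore measure the spread between these libraries, which may be technical in part. The parental libraries of the tolerance experiment are named VEH, read here as vehicle. The labels give no drug for these cells, so tolerance and the presence of drug cannot be told apart. Untreated below means that the labels give neither drug. AALE was grown in another medium than the adenocarcinoma lines, so its line and its medium cannot be told apart. How the knockdowns were made is not stated in the labels.

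The TCA cycle runs in the mitochondrial matrix. Citrate synthase joins acetyl-CoA to oxaloacetate, and aconitase, isocitrate dehydrogenase, oxoglutarate dehydrogenase, succinyl-CoA synthetase, succinate dehydrogenase, fumarase and malate dehydrogenase return the carbon to oxaloacetate while passing electrons to the respiratory chain. Pyruvate enters through the pyruvate dehydrogenase complex, which its kinases switch off and its phosphatases switch on, or through pyruvate carboxylase, and glutamate enters through glutamate dehydrogenase and the aspartate aminotransferases. Succinate, fumarate and 2-oxoglutarate also act on dioxygenases that sense oxygen and edit chromatin, which is why these enzymes are studied in tumours.

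Expected counts summed to 15516460 to 29694050 per library, and the 33 enzymes together took 2392 to 3846 CPM of the unscaled total. Every level of a single gene below is given as CPM after TMM scaling. All 8 epithelial markers reached 1 CPM in every library. Some marker sums moved with tolerance in HCC827, from parental to gefitinib- and osimertinib-tolerant cells: the 8 epithelial markers went from 8600 to 5800 and 5970 CPM, the 8 alveolar and airway markers from 464 to 103 and 161, the 8 leukocyte markers from 552 to 195 and 271, and the 8 fibroblast markers from 15 to 93.4 and 132. In PC9 the epithelial sum went from 9500 to 10900 and 10700 CPM, the basal sum from 1440 to 606 and 689, and the fibroblast sum from 22.7 to 26.7 and 72.3. Only 1 of the 8 fibroblast markers reached 1 CPM in each of these PC9 libraries and in parental HCC827. In gefitinib- and osimertinib-tolerant HCC827 4 and 3 did. The part of these shifts in the enzyme values was not tested. Basal markers summed to 8990 to 18000 CPM in AALE and to 84.1 to 1490 CPM in the other lines. MIR147B was counted in the 3 libraries that overexpress it, at 2.9 CPM in PC9, 12.9 in HCC827 and 22.1 in AALE, and was listed at 0 in the other 18, so this gene checks the overexpression labels and not the knockdown labels. MIR21 was listed at 0 in all 21 libraries, so neither its overexpression nor its knockdown could be checked on the gene itself. In bulk RNA, fewer cells of a kind and less RNA per cell cannot be told apart.

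All 33 genes passed the filter on low counts in every fit. Scaled to exon length, the median level over the 21 libraries was highest for MDH2, the mitochondrial malate dehydrogenase, at 83.1 CPM per kilobase. FH (fumarase), CS (citrate synthase) and SDHB (the iron-sulfur subunit of succinate dehydrogenase) followed at 57.1, 49.0 and 45.9 CPM per kilobase. The lowest were PDK3, a pyruvate dehydrogenase kinase, at 1.91, SUCLA2, the ATP-forming β subunit of succinyl-CoA synthetase, at 2.79, and ME2, a mitochondrial malic enzyme, at 2.83. The 4 highest are all enzymes of the cycle, and of the 3 lowest SUCLA2 is one. The order depends on the length used: with the longest transcript in place of all exons SDHA moved from place 10 to place 4.

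The spread across libraries was narrowest for PDHB (β subunit of the E1 component of pyruvate dehydrogenase), whose highest CPM was 2.2 times its lowest, and for CS, at 2.31 times. It was widest for PC (pyruvate carboxylase) at 13.3 times, PDK2 (another pyruvate dehydrogenase kinase) at 11.1 times, PCK2 (mitochondrial phosphoenolpyruvate carboxykinase) at 10.3 times and GOT1 (cytosolic aspartate aminotransferase) at 8.41 times. None of these 4 catalyses a step of the cycle itself.

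In drug-tolerant cells the enzymes of the cycle were mostly lower than in the parental cells of the same line, but no member passed the test across the genome. With both drugs averaged, 24 of the 33 members were lower and 9 higher, with a median log2 fold change of -0.44 against 0.04 over all 19837 genes tested. Of all these genes, 48.0% were lower. By edgeR's quasi-likelihood test, 0 members and 0 genes passed an adjusted p of 0.05 (background 0.0%, n = 2 lines). At an unadjusted p under 0.05 there were 11 members (33.3%) and 4655 genes (23.5%). DESeq2 called 4 members, namely CS, FH, GOT2 and IDH3A, and 2477 genes (12.5%), and limma called 0 of either.

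CS (ENSG00000062485, chromosome 12) opens the cycle and had 402 CPM in parental PC9, 253 after gefitinib and 221 after osimertinib. In HCC827 its level was 509 CPM in parental, 314 after gefitinib and 277 after osimertinib. Both tolerant libraries were thus below the parental library in each line, and the log2 fold change with both drugs averaged was -0.81 ± 0.18 (SE, adjusted p = 0.12). FH (ENSG00000091483, chromosome 1), which hydrates fumarate to malate, had 162 CPM in parental PC9 against 102 and 98.3 with gefitinib and osimertinib, and 103 CPM in parental HCC827 against 53.0 and 45.8. Its log2 fold change was -0.92 ± 0.20 (SE, adjusted p = 0.12), and all 4 tolerant libraries again lay below their parental library. IDH3A (ENSG00000166411, chromosome 15), the catalytic α subunit of the NAD-dependent isocitrate dehydrogenase, had 81.8 CPM in parental PC9 against 31.8 and 23.1, and 29.1 CPM in parental HCC827 against 17.6 and 17.1. With a log2 fold change of -1.22 ± 0.27 (SE, adjusted p = 0.12) it had the lowest value of these 4. GOT2 (ENSG00000125166, chromosome 16), the mitochondrial aspartate aminotransferase, had 150 CPM in parental PC9 against 90.3 and 85.2, and 217 CPM in parental HCC827 against 156 and 128. Its log2 fold change was -0.73 ± 0.18 (SE, adjusted p = 0.127).

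**Figure D1:**
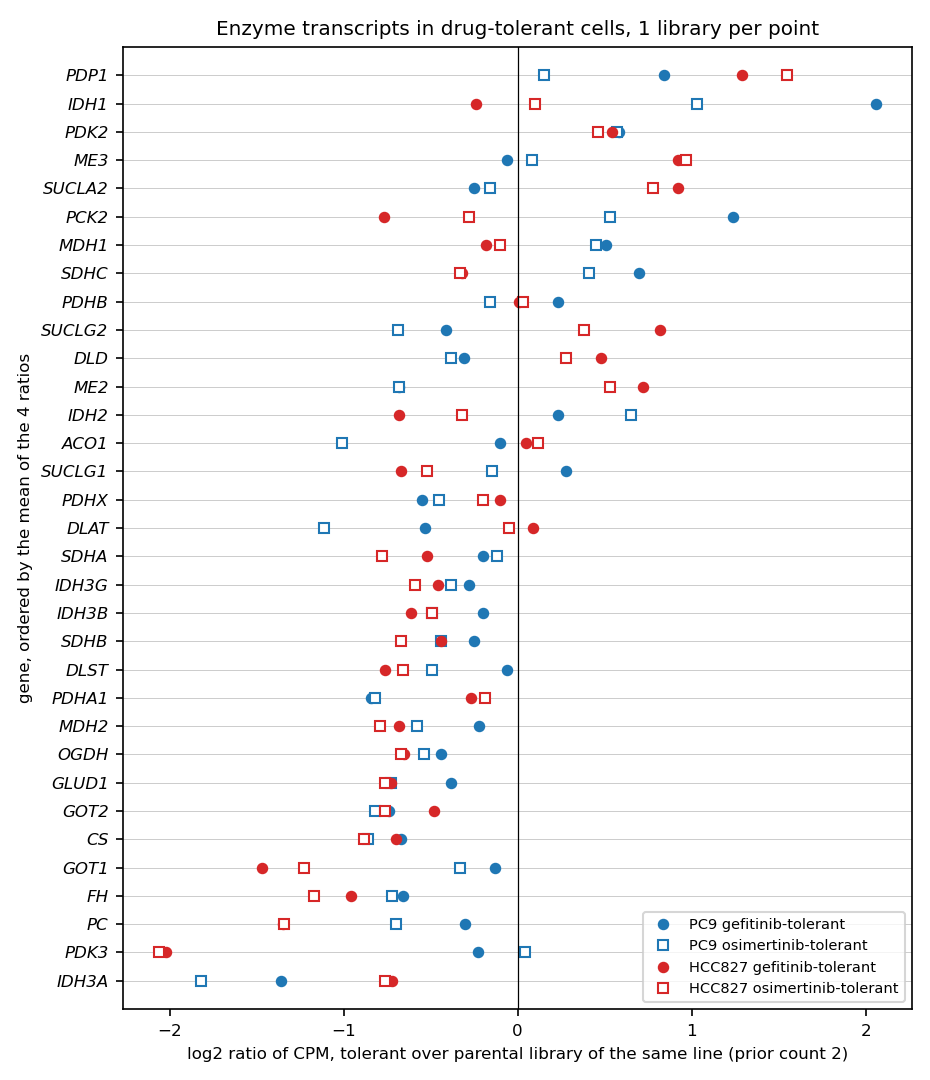
Log2 ratio of CPM between each drug-tolerant library and the parental library of its line (horizontal axis, prior count of 2) for the 33 enzymes (vertical axis, ordered by the mean of the 4 ratios). Blue points are PC9, red points HCC827, filled circles gefitinib and open squares osimertinib, with 1 library per point, and 16 enzymes lie left of 0 in all 4 libraries while PDK2 and PDP1 lie right of 0 in all 4.

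Along the pathway, of the 33 members, 16 were lower in all 4 tolerant libraries, a pattern shown by 29.0% of the 12004 genes with a mean of at least 5 CPM. These were CS, the 3 subunits IDH3A, IDH3B and IDH3G, the oxoglutarate dehydrogenase components OGDH and DLST, the succinate dehydrogenase subunits SDHA and SDHB, FH and MDH2, together with PDHA1 and PDHX of pyruvate dehydrogenase, PC, and the glutamate enzymes GLUD1, GOT1 and GOT2. GLUD1, SDHA and SDHC have near-identical copies elsewhere in the genome, so their counts are uncertain as far as reads could be split among copies.

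Within isocitrate dehydrogenase 3, the log2 ratio of the 3 subunits to the parental line ran from -1.36 to -0.20 in gefitinib-tolerant PC9, from -1.82 to -0.38 in osimertinib-tolerant PC9, from -0.72 to -0.46 in gefitinib-tolerant HCC827 and from -0.76 to -0.49 in osimertinib-tolerant HCC827. All of its subunits were on the same side of 0 in all 4 libraries. Pyruvate dehydrogenase was less uniform: of its 5 subunits measured, 4 and 5 were lower in the gefitinib- and osimertinib-tolerant PC9 libraries, and 2 and 3 in those of HCC827. Succinate dehydrogenase split in PC9, where SDHC, a membrane anchor, had 48.9 CPM in parental, 79.7 after gefitinib and 65.1 after osimertinib, while SDHA and SDHB were lower. In HCC827 these 3 subunits were lower in both tolerant libraries. The 3 transduced PC9 libraries had 89.7 to 129 CPM of SDHC, above both tolerant ones, so the split in PC9 rests on its parental library. SDHD, the fourth subunit and not among the 33, had 60.9 CPM in parental HCC827 against 51.0 and 50.8, and 57.5 in parental PC9 against 62.2 and 50.0.

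PDP1 and PDK2 were higher in all 4 tolerant libraries, a pattern shown by 23.0% of the 12004 genes. The 2 act in opposite directions: PDP1 is the phosphatase that activates pyruvate dehydrogenase and PDK2 a kinase that inactivates it. PDP1 (ENSG00000164951, chromosome 8) had 30.1 CPM in parental PC9, 53.9 after gefitinib and 33.3 after osimertinib, and 29.1 CPM in parental HCC827, 71.4 after gefitinib and 85.6 after osimertinib. Its log2 fold change was 0.93 ± 0.34 (SE, adjusted p = 0.197). PDK2 had 23.1 CPM in parental PC9 against 34.5 and 34.3, and 15.4 CPM in parental HCC827 against 22.4 and 21.2. The tolerant libraries thus stood above their parental library by at most 1.55 on the log2 scale for PDP1 and by at most 0.58 for PDK2.

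The 2 drugs were also taken apart. For gefitinib alone the median over members was -0.36 (0.05 over all genes, 0 members and 0.0% of genes called, 6 members and 3468 genes, 17.5%, at an unadjusted p under 0.05). For osimertinib alone it was -0.48 (0.04 over all genes, 0 members and 0.0% of genes called, 9 members and 3924 genes, 19.8%, at an unadjusted p under 0.05). DESeq2 called 0 members and 1345 genes (6.78%) for gefitinib, and 4 members and 1754 genes (8.84%) for osimertinib. CS, FH, IDH3A and GOT2 had the smallest p under each drug, with log2 fold changes of -0.71 ± 0.21, -0.85 ± 0.24, -1.10 ± 0.32 and -0.63 ± 0.22 (SE) under gefitinib. The corresponding values under osimertinib were -0.90 ± 0.21, -0.99 ± 0.24, -1.34 ± 0.32 and -0.82 ± 0.22 (SE). Both contrasts share the parental libraries.

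Set directly against gefitinib, osimertinib gave lower values for 28 of the 33 members, with a median of -0.17 against -0.02 over all genes. Of all genes, 53.0% were lower. None of the members and 0 of the genes (0.0%) passed by edgeR, and at an unadjusted p under 0.05 there were 0 members and 198 genes (0.998%). DESeq2 called 0 members and 7 genes (0.0353%). IDH2, the mitochondrial NADP-dependent isocitrate dehydrogenase, came nearest, with a log2 difference of 0.39 ± 0.34 (SE, adjusted p = 1.0), followed by ACO1, the cytosolic aconitase, at -0.39 ± 0.34, DLAT, the E2 component of pyruvate dehydrogenase, at -0.35 ± 0.31, and SUCLG2, the GTP-forming β subunit of succinyl-CoA synthetase, at -0.37 ± 0.35.

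The parental libraries were each a single measurement, and other untreated libraries of both lines were available from the overexpression experiment, namely scrambled, miR-147b and miR-21 cells. These cells were transduced and selected, and the labels do not say whether they were sequenced together with the tolerance libraries. Their names carry no VEH. Over genes of at least 5 CPM the scrambled library of PC9 differed from the parental library by a median absolute log2 ratio of 0.43, between the 0.41 and 0.46 of the gefitinib- and osimertinib-tolerant libraries. In HCC827 the scrambled library differed by 0.32 and the tolerant libraries by 0.61 and 0.61. The scrambled PC9 library differed from the parental one along GC content, with Pearson's r of 0.50 across the 33 members and 0.53 across 11166 genes. Its 10 members of at least 52% GC were all higher than in parental cells, with a median log2 ratio of 0.40, and its 14 members of under 45% GC had a median of -0.43, so the untreated range and the fits below that use it carry this difference. The part of GC content in them was not tested.

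Against all 4 untreated libraries, 14 members were lower in both tolerant libraries of both lines, a pattern shown by 20.0% of the 12004 genes. These were IDH3A, IDH3B, IDH3G, OGDH, DLST, SDHA, SDHB, FH, MDH2, PDHA1, PC, GLUD1, GOT1 and GOT2. FH is an example: in PC9 its untreated libraries had 159 to 172 CPM against 102 and 98.3 in the tolerant ones, and in HCC827 they had 103 to 139 CPM against 53.0 and 45.8. CS left the list, because its 3 transduced PC9 libraries had 252 to 282 CPM and overlapped the gefitinib-tolerant library at 253. PDP1 alone was above all untreated libraries in both lines (12.0% of genes), with 16.7 to 29.1 CPM untreated against 71.4 and 85.6 tolerant in HCC827 and 18 to 30.1 CPM untreated against 53.9 and 33.3 tolerant in PC9.

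**Figure D2:**
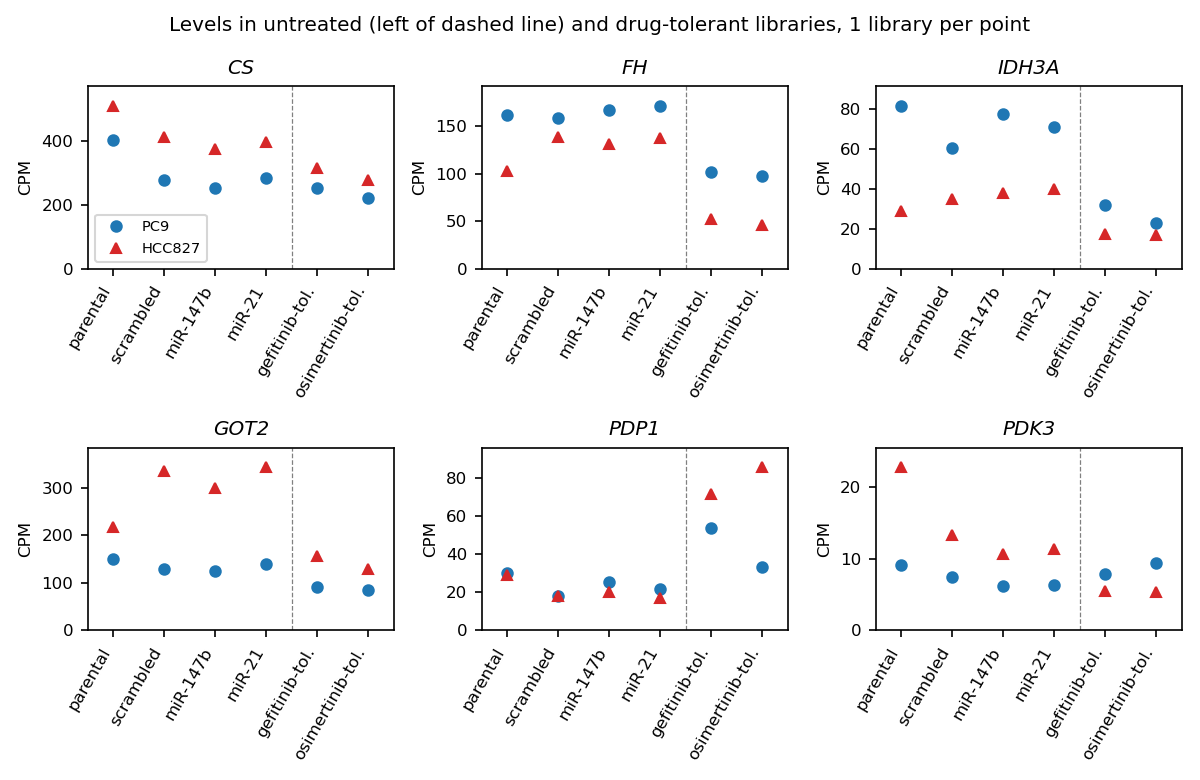
CPM of CS, FH, IDH3A, GOT2, PDP1 and PDK3 in the untreated (parental, scrambled, miR-147b, miR-21) and drug-tolerant libraries of PC9 (blue circles) and HCC827 (red triangles), 1 library per point, with linear axes that start at 0. FH, IDH3A and GOT2 are lower in the tolerant libraries than in all untreated libraries of the same line, while CS in PC9 overlaps.

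A fit that took the parental and scrambled libraries together as untreated, chosen after the data had been seen, called 15 members, 14 of them lower (background 9.9% of genes lower, 18.9% in either direction). In it 4 tolerant libraries, with the 2 drugs pooled, and 4 untreated libraries counted as replicates, although they come from 2 lines. Its p-values thus treat libraries of the same line as independent, and the same holds for the larger fit below. IDH3A fell by 1.15 ± 0.19 (SE, adjusted p = 0.00825), FH by 1.01 ± 0.19 (adjusted p = 0.0122), PC by 1.23 ± 0.24 (adjusted p = 0.0127) and GOT2 by 0.83 ± 0.19 (adjusted p = 0.0195) on the log2 scale, all by edgeR. PDP1 rose by 1.27 ± 0.29 (SE, adjusted p = 0.02). Adding the miRNA libraries to the untreated side gave 19 members, of which 18 fell and PDP1 rose (background 37.4% of genes in either direction, 17.9% lower). Leaving out the parental PC9 library from the 6 tolerance libraries also moved the count. The effect of tolerance then came from HCC827 alone, with 1 parental library, so that count is not given.

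Proliferation genes were also lower. All 18 genes of that list were below parental in each of the 4 tolerant libraries, with median log2 ratios of -0.83 and -0.96 in PC9 and -3.68 and -3.31 in HCC827, and 14 of the 18 passed the test of a lower change in HCC827 than in PC9 (1.98% of genes). Of 23 mitochondrial housekeeping genes of at least 5 CPM, such as import receptors and chaperones, 20 to 22 were lower in each tolerant library, with medians between -0.83 and -0.55. Over the 33 enzymes the medians were -0.23 and -0.44 in PC9 and -0.46 and -0.33 in HCC827. The part of proliferation or of mitochondrial content in the enzyme values was not tested. Of the other 45 genes of the pathway, which include transporters, carriers and assembly factors, 40 were tested, 0 were called by edgeR (0.0% of genes) and their median log2 fold change with both drugs averaged was -0.22. SLC25A22, a mitochondrial glutamate carrier, and SLC1A5, a plasma membrane glutamine transporter, had values of -1.30 ± 0.24 and -1.08 ± 0.27 (SE), while GLUL, glutamine synthetase, had 1.05 ± 0.25 (SE).

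PC9 and HCC827 were also compared in how the enzymes changed with tolerance. The test of the difference between the lines, with the 2 drugs as repeats within a line, called 773 genes (3.9%, of which 1.92% higher and 1.98% lower in HCC827) and 1 member, PDK3, while DESeq2 called 7 members and 11.8% of genes. The share of members called by edgeR was thus no higher than that of all genes. Each line has 1 parental library, and the spread in this test comes from the 2 drugs, so the p-value does not cover the spread between parental libraries. At an unadjusted p under 0.05 there were 14 members (42.4%) and 5321 genes (26.8%). PDK3 (ENSG00000067992, chromosome X) had 22.8 CPM in parental HCC827, 5.54 after gefitinib and 5.38 after osimertinib, and 9.17 CPM in parental PC9, 7.82 after gefitinib and 9.46 after osimertinib. Its change was lower in HCC827 than in PC9 by a log2 difference of -2.03 ± 0.32 (SE, adjusted p = 0.0449), and the call was lost when any of the 4 tolerant libraries was left out, with values from -2.15 to -1.88. The other untreated HCC827 libraries had 10.6 to 13.3 CPM of PDK3, between the parental and the tolerant ones, and with parental and scrambled libraries as untreated the difference was -1.86 and not called.

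ME2 pointed the other way, with 31.3 CPM in parental HCC827 against 51.8 and 45.2 in tolerant cells, and 50.7 CPM in parental PC9 against 31.7 and 31.5. Its difference was 1.26 ± 0.23 (SE, adjusted p = 0.0534). GOT1, at -1.17 ± 0.27 (adjusted p = 0.0775), had 63.4 CPM in parental HCC827 against 22.9 and 27.0, but 24.4 CPM in parental PC9 against 22.4 and 19.4. SUCLA2, at 1.01 ± 0.23 (adjusted p = 0.0782), had 12.9 CPM in parental HCC827 against 24.4 and 22.2, and 32.6 CPM in parental PC9 against 27.4 and 29.2. With parental and scrambled libraries as untreated the differences were 0.55 for ME2, -0.85 for GOT1 and 0.44 for SUCLA2, and were not called. Transduced HCC827 libraries had 46.0 to 52.8 CPM of ME2, 51.7 to 59.9 of GOT1 and 19.9 to 22.6 of SUCLA2. Transduced PC9 libraries had 27.6 to 33.9, 34.4 to 37.5 and 24.2 to 33.9 CPM. By direction alone, ACO1, DLD, SUCLG2, SUCLA2 and ME2 were higher in both tolerant HCC827 libraries and lower in both PC9 ones (14.7% of genes), and IDH2, SDHC, MDH1 and PCK2 did the reverse (10.1% of genes). For SDHC and PCK2 the parental PC9 library was the lowest of all 21.

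Ratios of isoenzymes were taken within each library, as ratios of counts whose differences between libraries, and not whose size, are compared. In HCC827 the log2 ratio of PDK2 to PDK3 counts went from -0.56 in parental cells to 2.02 after gefitinib and 1.98 after osimertinib, with 0.67 to 1.06 in the 3 transduced HCC827 libraries. In PC9 that ratio was 1.33 in parental, 2.14 and 1.86 in tolerant and 1.80 to 1.84 in transduced cells. For the cytosolic IDH1 and the mitochondrial IDH2 the log2 ratio of counts was -0.17 in parental PC9, 1.66 after gefitinib and 0.21 after osimertinib. IDH1 had 33.4 CPM in parental PC9, 139 after gefitinib and 68.3 after osimertinib, but also 86.1 to 117 CPM in the transduced PC9 libraries, so the parental library was the lowest of all 6.

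The miRNA experiments address whether miR-147b or miR-21 changes these transcripts. A miRNA guides repression of mRNAs whose 3′ untranslated region pairs with its seed, bases 2 to 8. The mature sequences are from RefSeq (GRCh38.p14), miR-147b-3p at chr15:45433098-45433118 and miR-21-5p at chr17:59841273-59841294, both on the plus strand, written 5′ to 3′ with the seed in capitals because it sets which sites were searched.
miR-147b-3p: gUGUGCGGaaaugcuucugcu
miR-21-5p: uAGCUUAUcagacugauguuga
The match to the miR-147b seed, CCGCACA, was searched on the transcribed strand of the longest annotated 3′ untranslated region of each gene (GENCODE 29) and lay in 450 of 18410 genes (2.4%) and in 0 of the 33 members. The match to the miR-21 seed, ATAAGCT, lay in 1631 genes (8.9%) and in 2 members, PDHA1 and SDHC. Their sites are shown with 8 bases on each side, the match in capitals, since these are the members with a site for either seed.
PDHA1: accagtctATAAGCTctttatct
SDHC: gactgattATAAGCTtcatggta

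Overexpression of miR-147b left the median of the members near that of their controls. By line the median log2 ratio was 0.15 in AALE, -0.08 in HCC827 and -0.06 in PC9. The median absolute log2 ratios were 0.18, 0.12 and 0.27, against 0.22, 0.12 and 0.19 over genes of at least 5 CPM. Over the lines together the median log2 fold change was 0.01 against 0.02 over all 18433 genes. Of the members 18 were higher and 15 lower (45.3% of genes lower), and by edgeR 0 members and 1 gene (0.00543%) passed (n = 3 lines). At an unadjusted p under 0.05 there were 1 member and 828 genes (4.49%), and DESeq2 called 0 members (0.038% of genes). SDHC came nearest: it had 129 CPM in scrambled PC9 against 89.7 with miR-147b, 100 in scrambled AALE against 70.3, and 103 in scrambled HCC827 against 108. It was thus lower in 2 of the 3 lines, with a log2 fold change of -0.31 ± 0.13 (SE, adjusted p = 0.921). ACO1 followed at -0.30 ± 0.13 (SE), with 121 CPM in scrambled HCC827 against 75.1 and 42.9 in scrambled AALE against 35.6, but 72.7 in scrambled PC9 against 74.3. IDH3A and SUCLA2 had 0.22 ± 0.11 and 0.25 ± 0.12 (SE) and were higher in every line, as were DLD and PDHX (4 members, 11.3% of genes).

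In AALE, GLUD1, glutamate dehydrogenase, had 106 CPM in the scrambled, 181 in the miR-147b and 115 in the miR-21 library, and IDH1 had 134, 66.1 and 119 CPM. In scrambled and miR-147b HCC827, GLUD1 had 182 and 168 CPM and IDH1 140 and 152 CPM. In PC9 GLUD1 had 86.6 and 97.9 CPM and IDH1 86.1 and 117 CPM, so GLUD1 was higher in 2 of the 3 lines and IDH1 lower in 1. OGDH, PDK2, PDK3 and GOT1 were lower with miR-147b in all 3 lines (4 members, 13.0% of genes). SDHD and VHL were read as checks, because both are reported in the literature as targets of miR-147b. SDHD had a log2 fold change of 0.17 ± 0.12 (SE) and VHL of 0.02 ± 0.10 (SE), adjusted p = 0.921 and 0.989.

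Overexpression of miR-21 gave a median of -0.01 against 0.0 over all genes, with 0 members and 0 genes called by edgeR (0.0%) and 0 members and 171 genes (0.928%) at an unadjusted p under 0.05. DESeq2 called 0 members (0.00543% of genes). PDK3 had 13.3 CPM in scrambled HCC827 against 11.4, 7.50 in scrambled PC9 against 6.30, and 6.30 in scrambled AALE against 4.71. It was lower in all 3 lines, by a log2 fold change of -0.29 ± 0.15 (SE, adjusted p = 1.0), and was also lower with miR-147b in all 3, both contrasts sharing the scrambled libraries. PDHX, the E3-binding protein of pyruvate dehydrogenase, had 0.18 ± 0.11, IDH3A 0.12 ± 0.11 and OGDH -0.10 ± 0.09 (SE). Of the 2 members with a miR-21 site, PDHA1 had 57.2, 46.9 and 54.8 CPM with miR-21 against 59.8, 46.9 and 50.0 scrambled in PC9, HCC827 and AALE, and SDHC had 112, 111 and 101 CPM against 129, 103 and 100.

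Set against each other, miR-147b and miR-21 overexpression gave 0 members called, with 1 gene of 18433 (0.00543%) called by edgeR, and at an unadjusted p under 0.05 668 genes (3.62%). DESeq2 called 0 members (0.0651% of genes). SDHC was nearest at -0.28 ± 0.13 (SE, adjusted p = 1.0), then GLUD1 at 0.23 ± 0.16, PC at 0.21 ± 0.14 and PDP1 at 0.20 ± 0.13 (SE).

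**Figure D3:**
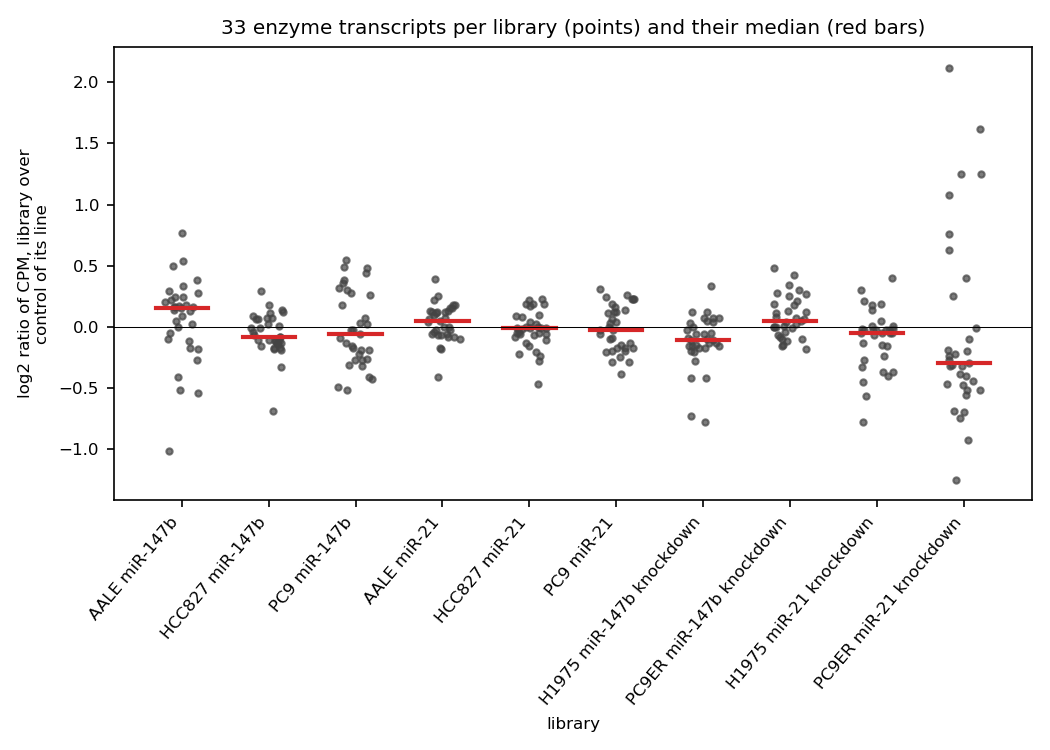
Log2 ratio of CPM of the 33 enzymes (points) in each of the 10 libraries with a miRNA overexpressed or knocked down, over the control library of the same line, with the median as a red bar. Medians lie between -0.30 and 0.15, and the PC9ER miR-21 knockdown library has the widest spread.

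Knockdown of miR-147b gave a median of -0.01 against 0.02 over all 17723 genes, and 0 members and 0 genes (0.0%) passed by edgeR, with 0 members and 146 genes (0.824%) at an unadjusted p under 0.05. DESeq2 called 0 members (0.147% of genes). PC had 45.4 CPM in control H1975 against 27.3 with the knockdown, but 88.5 in control PC9ER against 95.2, for a log2 fold change of -0.30 ± 0.33 (SE, adjusted p = 1.0). The 2 lines thus moved in opposite directions. IDH1 did likewise, with 98.1 CPM against 57.1 in H1975 and 70.6 against 85.2 in PC9ER, at -0.29 ± 0.36 (SE). SDHB and PDK3 had -0.18 ± 0.25 and -0.20 ± 0.33 (SE). Of the members, 5 were higher and 6 lower in both lines, against 26.1% and 19.0% of genes.

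Knockdown of miR-21 gave a median of -0.19 against -0.02, with 24 members lower (51.0% of genes lower). By edgeR 0 members and 0 genes (0.0%) were called, with 0 members and 357 genes (2.01%) at an unadjusted p under 0.05. DESeq2 called 0 members (0.209% of genes). The largest values came from PC9ER alone. SUCLA2 had 6.91 CPM in control PC9ER, 9.30 with the miR-147b knockdown and 30.4 with the miR-21 knockdown, against 26.9, 24.1 and 26.0 in H1975. DLD, the E3 component shared by pyruvate and oxoglutarate dehydrogenase, had 29, 35.2 and 89.2 CPM in PC9ER against 122, 110 and 118 in H1975. Their log2 fold changes were 1.08 ± 0.57 and 0.80 ± 0.44 (SE, adjusted p = 0.833 for both), so neither exceeded the spread between the lines. PC and IDH2 were lower in the PC9ER library, at 63.9 against 88.5 CPM and 33.7 against 80.3 CPM, and had -0.55 ± 0.33 and -0.62 ± 0.42 (SE) over both lines.

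In both lines 15 members were lower with the miR-21 knockdown (21.0% of genes) and 0 were higher (14.1% of genes). PDHA1, with a miR-21 site, had 83.6 CPM in control H1975 against 95.3, and 50.6 in control PC9ER against 47.2. SDHC, the other, had 71.5 against 82.9 CPM and 178 against 93.3 CPM, so neither was higher in both lines. Over all genes, the 1321 with a site had a median log2 fold change of 0.34 and the 12925 without one -0.07 in the miR-21 knockdown, which includes the PC9ER library described next. In the miR-21 overexpression these medians were 0.02 and 0.0, in the miR-147b overexpression 0.0 for the 394 genes with its site and 0.03 without, and in the miR-147b knockdown 0.02 and 0.02.

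The PC9ER miR-21 knockdown library stood apart from the other 9 miRNA libraries in its distance from its control. Its median absolute log2 ratio to its control was 0.68 over genes of at least 5 CPM, against 0.12 to 0.22 in the others, and 22.3% of these genes were at least 2-fold higher. Among the 33 members 5 were at least 2-fold higher, a smaller share than that of these genes. At least 2-fold lower was 1 member, against 5.14% of genes of at least 5 CPM. The change followed base composition: across the 33 members Pearson's r between GC content of the longest transcript and the log2 ratio was -0.61, and across 11166 genes it was -0.69, both from 1 pair of libraries and over genes that are not independent replicates. The 14 members of under 45% GC had a median of 0.32, and of the 10 members of at least 52% GC 0 were higher, with a median of -0.54. The PC9ER control also differed along GC content from the scrambled PC9 library, with r of 0.45 over members and 0.58 over genes. In the transduced PC9 libraries SUCLA2, DLD and IDH2 had 24.2 to 33.9, 58.1 to 72.8 and 37.5 to 50.6 CPM. They had 6.91, 29.0 and 80.3 CPM in the PC9ER control and 30.4, 89.2 and 33.7 with its miR-21 knockdown. Which PC9ER library carries the shift was not tested. In PC9 with miR-147b the r over members was -0.63, and with miR-21 -0.66, both against the same scrambled library. In HCC827 these values were -0.05 and -0.34, and in AALE 0.2 and 0.53. For the miR-147b and miR-21 knockdowns of H1975 they were 0.13 and 0.32, and for the miR-147b knockdown of PC9ER -0.37. The part of GC content in these values was not tested. In the tolerant libraries r over members was 0.10 and 0.17 in PC9 and -0.32 and -0.24 in HCC827.

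**Figure D4:**
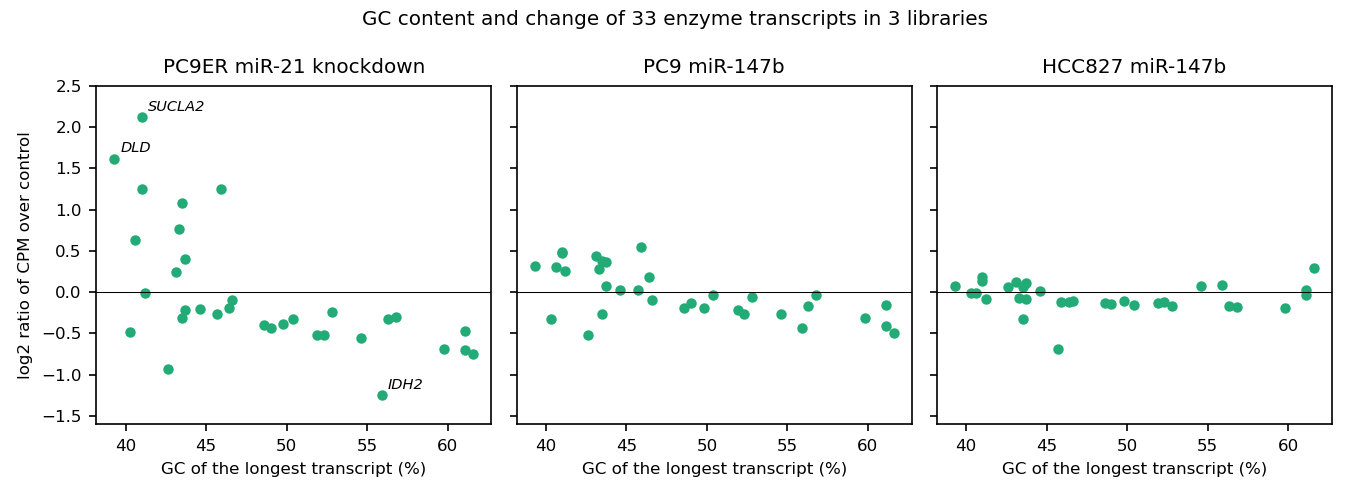
Log2 ratio of CPM over the control library (vertical axis) against GC content of the longest transcript in percent (horizontal axis) for the 33 enzymes in 3 libraries. In the PC9ER miR-21 knockdown and PC9 miR-147b libraries the points fall from low to high GC (r = -0.61 and -0.63), and in the HCC827 miR-147b library they do not (r = -0.05).

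Overexpression minus knockdown, fitted over all 15 miRNA libraries, gave 0 members and 0 of 20092 genes called for miR-147b (0.0%) and for miR-21 (0.0%) by edgeR. At an unadjusted p under 0.05 there were 0 members in either, with 319 and 863 genes (1.59% and 4.3%), and DESeq2 called 0 members in either (0.0448% and 0.149% of genes). For miR-147b the members nearest to a call were ACO1 at -0.39 ± 0.29, PC at 0.42 ± 0.31, SUCLG2 at 0.29 ± 0.23 and GLUD1 at 0.31 ± 0.26 (SE). For miR-21 they were SUCLA2 at -0.99 ± 0.52, SDHB at 0.37 ± 0.20, DLD at -0.71 ± 0.41 and IDH2 at 0.59 ± 0.39 (SE).

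The cell lines were compared next, each with 3 libraries. AALE against the mean of HCC827 and PC9, over the 9 overexpression libraries, called 26 members, 7 higher and 19 lower, where edgeR called 66.3% of all genes (34.4% higher and 32.0% lower). DESeq2 called 26 members and 62.8% of genes. The median over members was -0.47 against 0.04 over all genes. PCK2, which turns oxaloacetate into phosphoenolpyruvate in mitochondria, had 160, 179 and 166 CPM in the scrambled, miR-147b and miR-21 libraries of AALE, 24.1, 29.4 and 24.0 CPM in HCC827 and 56.1, 39.9 and 48.6 CPM in PC9. The groups did not overlap, and PCK2 was 4.75-fold higher in AALE (log2 2.25 ± 0.12, SE, adjusted p = 2.01e-07). ME3, an NADP-dependent mitochondrial malic enzyme, was at the other end, with 6.38, 7.76 and 8.37 CPM in AALE, 44.9, 39.6 and 41.7 CPM in HCC827 and 47.9, 47.0 and 47.0 CPM in PC9, 5.97-fold lower in AALE (log2 -2.58 ± 0.12, SE, adjusted p = 9.49e-08). IDH3G, the γ subunit of isocitrate dehydrogenase 3, had 28.2, 31.5 and 30.6 CPM in AALE against 89.9 to 160 CPM in the other 2 lines (log2 -2.08 ± 0.11, SE, adjusted p = 2.28e-07). Its partner IDH3A, in contrast, was slightly higher in AALE, by 0.25 ± 0.09 (SE, adjusted p = 0.0314).

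GOT1, ME2 and PDP1 were also higher in AALE, by 1.31 ± 0.08, 1.29 ± 0.09 and 1.26 ± 0.11 on the log2 scale (SE, adjusted p = 5.42e-07, 1.48e-06 and 5.92e-06 by edgeR). PC and SDHA, the flavoprotein subunit of succinate dehydrogenase, fell by 1.44 ± 0.13 and 1.23 ± 0.08 (SE, adjusted p = 6.95e-06 and 1.13e-06). Of the other members called, 15 fell by 0.28 to 1.19, and PDHX and SUCLA2 rose by 0.29 and 1.04. Within the pairs of isoenzymes, the log2 ratio of ME2 to ME3 counts was 3.47 to 3.92 in AALE, 0.05 to 0.34 in the 3 HCC827 libraries and -0.80 to -0.47 in the 3 PC9 libraries of this experiment. That of GOT1 to GOT2 was 0.03 to 0.32 in AALE against -2.73 to -2.48 in HCC827 and -1.89 to -1.83 in PC9. In the 3 H1975 libraries the ratio of ME2 to ME3 was 1.77 to 2.26 and that of GOT1 to GOT2 was -0.61 to -0.06, both between the values of AALE and those of HCC827 and PC9.

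HCC827 against PC9 called 19 members, 9 higher and 10 lower, where 62.0% of all genes were called (31.6% higher and 30.4% lower), so the share of members, 57.6%, was close to that of all genes. DESeq2 also called 19 members, with 58.1% of genes. GOT2 had 334, 300 and 343 CPM in HCC827 against 128, 125 and 139 in PC9, 2.55-fold higher (log2 1.35 ± 0.10, SE, adjusted p = 2.55e-06). GLUD1, PDK3 and ME2 were also higher, by 0.94 ± 0.16, 0.85 ± 0.15 and 0.69 ± 0.11 (SE). DLST, the E2 component of oxoglutarate dehydrogenase, had 171, 156 and 161 CPM in HCC827 against 497, 427 and 467 in PC9 and was 2.79-fold lower (log2 -1.48 ± 0.12, SE, adjusted p = 3.81e-06). PC, OGDH and IDH2 were lower too, by log2 values of -1.71 ± 0.14, -1.11 ± 0.09 and -0.92 ± 0.14 (SE). The parental libraries, which were not in this fit, had the same direction for 7 of these 8 genes, for example 217 against 150 CPM of GOT2 and 183 against 331 CPM of DLST in HCC827 and PC9. ME2 went the other way, with 31.3 CPM in parental HCC827 and 50.7 in parental PC9.

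H1975 against PC9ER, over the 6 knockdown libraries, called 14 members, 6 higher and 8 lower, where 46.1% of all genes were called (21.2% higher and 24.8% lower), and DESeq2 called 16 members and 49.2% of genes. PDK2 had 4.56, 4.81 and 6.05 CPM in H1975 against 50.5, 47.9 and 31.2 in PC9ER, 8.4-fold lower (log2 -3.07 ± 0.36, SE, adjusted p = 0.00189). GOT1 had 163, 146 and 126 CPM in H1975 against 33.5, 33.7 and 28.4 in PC9ER, 4.46-fold higher (log2 2.16 ± 0.22, SE, adjusted p = 0.00133). Both were thus clear of the spread between the 3 libraries of a line. ME2, DLD and GLUD1 were higher in H1975, by 1.47 ± 0.30, 1.35 ± 0.36 and 1.32 ± 0.21 (SE), and IDH2, PC and DLST lower, by log2 values of -1.67 ± 0.35, -1.30 ± 0.27 and -1.27 ± 0.23 (SE). Among the PC9ER libraries DLD ran from 29.0 to 89.2 CPM and IDH2 from 33.7 to 80.3, against 110 to 122 and 17.2 to 19.4 in H1975. GC content was 40.6%, 39.3% and 46.4% for ME2, DLD and GLUD1, and 55.9%, 61.1% and 51.9% for IDH2, PC and DLST. It was 59.8% for PDK2 and 52.8% for GOT1, and its part in these values was not tested. The count depended on the libraries used: it was 23 without the miR-21 knockdown of either line (64.8% and 65.4% of genes), 7 without the control of either (32.9% and 32.0%) and 2 without the miR-147b knockdown of either (24.5% and 24.1%).

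**Figure D5:**
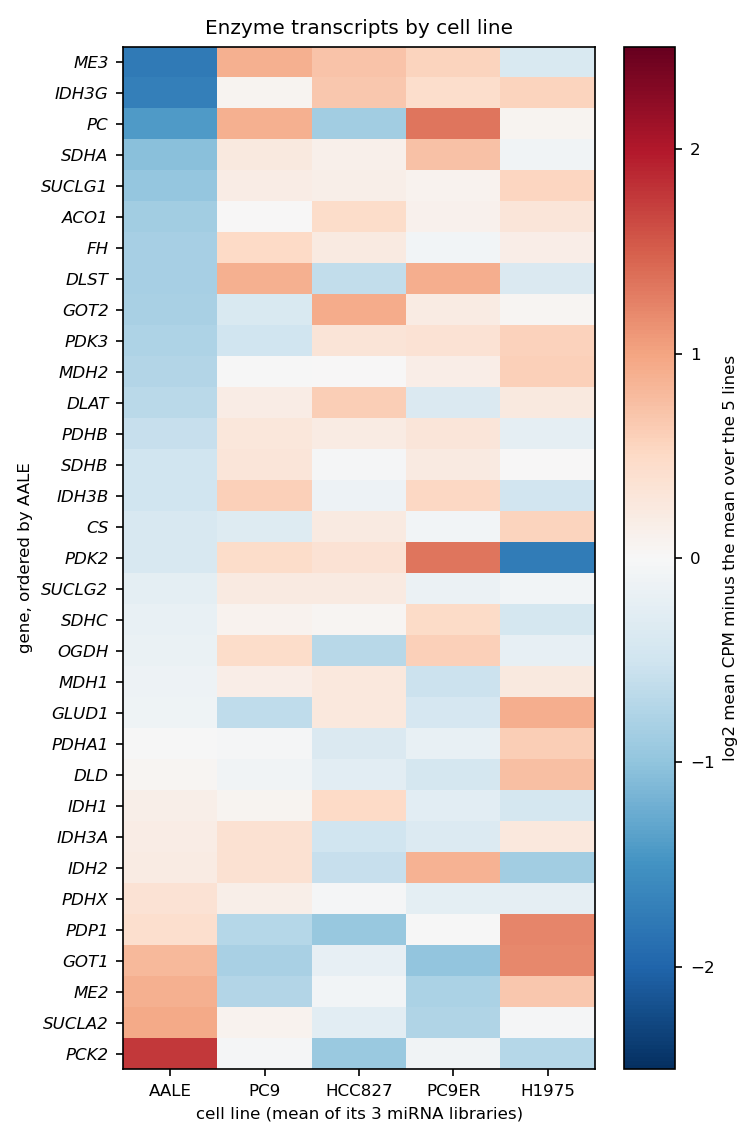
Heat map of the 33 enzymes (rows, ordered by AALE) in the 5 cell lines (columns), as log2 of the mean CPM of the 3 miRNA-experiment libraries of a line minus the mean over the 5 lines (colour scale). ME3, IDH3G and PC are at the low end and PCK2, SUCLA2, ME2 and GOT1 at the high end in AALE, and PDK2 is lowest in H1975.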

How the data were processed

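Per the submitters' processing notes, the authors made expected counts per gene with Bowtie2 and RSEM on GRCh37; the notes state no versions and no annotation release. The authors deposited these expected counts in 3 tables, with a summary of the signal per library (17932024 to 33129732 reads) and the deposited percent of bases at quality 30 or above (96.4 to 97.1). Expected counts were rounded, scaled by TMM, filtered with filterByExpr and tested by edgeR's quasi-likelihood test (edgeR 4.0.16, R 4.3.3), with Benjamini-Hochberg adjustment over all genes at 0.05. The cell line was a block, and where lines were compared the miRNA group was the block. Standard errors were taken as the log2 fold change divided by the square root of the test's F. Each of the 3 experiments had its own fit. The line is named in the labels. After the mean of each group was subtracted from log2 CPM, same-line libraries correlated at 0.706 to 0.859, 0.904 to 0.923 and 0.797 to 0.93 in the 3 experiments. CPM was scaled by TMM over all 21 libraries, and log2 ratios of library pairs used a prior count of 2. DESeq2 1.42.0, limma 3.58.1, RLE scaling, no filter, no block and leaving out each library were alternatives. Scripts were tested on simulated data. Lengths, GC content and untranslated regions are from GENCODE 29 on GRCh38, and seeds from RefSeq. Members, gene lists and tests were chosen with earlier results of these data known. Tests are printed for the members called in a comparison (where more than 8 were, the 4 largest fold changes in each direction) or, where fewer than 4 were, for the 4 of smallest p, and members given by CPM alone were chosen after their values were seen.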

Additional observations from a re-analysis of the deposited data

Results flagged for a closer look

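PDK3 was the only one of the 33 enzymes whose change with drug tolerance differed between the lines past the threshold. The change in HCC827 minus that in PC9 was -2.03 on the log2 scale (SE 0.32, edgeR adjusted p = 0.0449), with the 2 drugs as repeats within a line and 1 parental library in each. The share of members called, 1 of 33, was no higher than that of all genes (3.9%). The value was -1.99 with DESeq2 and -2.01 with limma, and -1.73 with all transduced libraries added as untreated, and the call held in each. It was lost with no filter on low counts (-2.0, adjusted p = 0.0784), without any one of the 4 tolerant libraries (-2.15 to -1.88, adjusted p = 0.0952 to 0.16) and with the scrambled libraries added as untreated (-1.86, adjusted p = 0.117), all by edgeR. Parental HCC827 had 22.8 CPM and the other untreated HCC827 libraries 10.6 to 13.3.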

How the results depend on the processing

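By DESeq2, the members called numbered 4 for osimertinib, 4 for both drugs averaged and 7 for tolerance by cell line, and with no filter on low counts tolerance by cell line gave 0. With other untreated libraries added, both drugs averaged gave 15 and then 19 members, and tolerance by cell line 0 and then 3. Those fits treat libraries of the same line as independent. Leaving out each library in turn gave 0 to 5 members for gefitinib, 0 to 10 for osimertinib and 0 to 11 for both drugs averaged, each highest without the parental PC9 library (16.5%, 18.4% and 21.3% of genes called). It gave 0 to 0 for tolerance by cell line, which could not be fitted without a parental library, 0 to 10 for the miR-21 knockdown and 0 to 7 for miR-21 overexpression minus knockdown, both highest without the H1975 miR-21 knockdown library (30.1% and 20.1% of genes called), and 2 to 23 for H1975 against PC9ER. A line left with 1 library in a group is assumed to vary like the others. The cause was not tested. Some named members reversed when 1 library was left out, and their values over all such fits ran from -0.95 to 0.09 for ACO1 (osimertinib against gefitinib), -0.01 to 0.39 for GLUD1 (miR-147b against miR-21), -0.72 to 0.07 for PC, -0.77 to 0.24 for IDH1 and -0.42 to 0.01 for PDK3 (miR-147b knockdown), and -1.88 to 0.01 for SUCLA2 and -1.4 to 0.05 for DLD (miR-21 overexpression minus knockdown). With no block by line, 0 members were called for the drug and miRNA contrasts. The line comparisons were refitted with no block by miRNA group. AALE against HCC827 and PC9 then gave 27 members, HCC827 against PC9 19 and H1975 against PC9ER 18 (68.2%, 64.2% and 52.1% of genes). The pairing by line thus changed no count of 0. With 2 lines a group, edgeR's test has few degrees of freedom, and among all genes DESeq2 called 1345 for gefitinib, 1754 for osimertinib and 2350 for tolerance by cell line.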
